A study of Mus musculus with 4 samples.

Results

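Imprinted genes that regulate growth were measured in primary smooth muscle cells of the mouse aorta. They were H19, Dlk1, Peg3, Mest, Plagl1, Grb10, Sgce, Peg10 and Ndn, chosen by their names in the scanner files, which list 17 probes for these 9 genes among 41174 probes in all. The cells were of the genotypes Atg7F/F SM22α-Cre+ and Atg7+/+ SM22α-Cre+, both labelled as strain C57LB/6, so cells of both genotypes carried Cre recombinase. The SM22α promoter, active in smooth muscle, drives the Cre, and F/F denotes 2 floxed alleles of Atg7, which encodes the enzyme that starts the conjugation reactions of autophagosome formation. The cultures, in medium with 10% serum, were taken at passages 4 to 10, and the labels give neither the age of the animals nor how many animals made up a culture. Each genotype had 2 biological replicates, and the Atg7F/F and Atg7+/+ extracts of the same number shared an array, once in each dye orientation, so that there were 4 dual-colour Agilent arrays.

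An imprinted gene is transcribed from the chromosome of 1 parent, with the other copy silenced under the control of methylation laid down in the germ line. Many imprinted genes govern fetal growth: those read from the father's copy often promote it, and those read from the mother's copy often restrain it. Several of them are abundant in fetal mesenchyme and decline after birth, and in the mouse many belong to a co-expressed network in which the transcription factor Plagl1 takes part. The arrays measure total transcript and cannot tell the parental copies apart.

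The probes behind the results are printed to show which part of each transcript was read, in lower case, 5′ to 3′, with the mm9 coordinates of the whole probe. Each is 60 bases long. Where 30 bases are printed, they are the first 30 of the probe.
Plagl1, brighter probe, chr10:12851280-12851339, plus strand: tgcccagtatatatctcctaacctttgatg
Plagl1, dimmer probe, chr10:12849470-12849529, plus strand: cttgttagcttactctgtagtttcttcttc
Grb10, brightest probe, chr11:11830965-11831024, minus strand: tttctaaatgacgactccgtgtaaccacct
Grb10, second probe, chr11:11833580-11834228, minus strand: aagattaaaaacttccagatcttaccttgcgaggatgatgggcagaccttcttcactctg
Grb10, dimmest probe, chr11:11870574-11870633, minus strand: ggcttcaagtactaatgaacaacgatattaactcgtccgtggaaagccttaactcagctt
Sgce, brighter probe, chr6:4624457-4624516, minus strand: ggttacgcatgcccactgtgttgagaacca
Sgce, dimmer probe, chr6:4641640-4644080, minus strand: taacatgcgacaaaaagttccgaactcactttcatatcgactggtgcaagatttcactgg
Dlk1, brighter probe, chr12:110698667-110698726, plus strand: cgctttttgtggtggagtttgctctattgt
Dlk1, dimmer probe, chr12:110698428-110698487, plus strand: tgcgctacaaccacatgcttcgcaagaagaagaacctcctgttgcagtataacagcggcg
H19, brighter probe, chr7:149761769-149761828, minus strand: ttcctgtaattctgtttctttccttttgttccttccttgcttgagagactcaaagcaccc
H19, dimmer probe, chr7:149762018-149762165, minus strand: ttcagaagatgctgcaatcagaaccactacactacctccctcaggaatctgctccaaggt
Ndn, the only probe, chr7:69493847-69493906, plus strand: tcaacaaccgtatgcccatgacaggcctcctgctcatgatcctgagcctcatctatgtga
The second Grb10 probe, the dimmer Sgce probe and the dimmer H19 probe align over 649, 2441 and 148 bases, so each spans a gap in the genome and reads a spliced transcript. No annotation of mm9 was used, so exons and untranslated regions are not assigned to the other probes.

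Atg7 itself had a mean log2 ratio of -1.22 ± 0.07, Atg7F/F over Atg7+/+ (SD, n = 2), and was lower in Atg7F/F on all 4 arrays (limma, adjusted p = 0.938), which is the direction of the labels. Whether its probe lies in the floxed part of the gene is not given in the sources used here. Ratios below are log2 of Atg7F/F over Atg7+/+ with SD over 2 replicates, each the mean of its dye-swapped pair. Signals are spot intensities less the local background, in scanner units, with no normalization. Because the channels differ in gain, they are set side by side only within a dye. Within a dye the genotypes of a replicate lie on different arrays, whereas the ratios compare them on the same array. Of the smooth muscle markers, 8 of 9 passed the filter on dim probes. Myocd, the exception, was well above background on 2 arrays in Atg7F/F and 3 in Atg7+/+ cells. The summed normalized signal of the 8 was 258325 and 196207 in replicates 1 and 2 of Atg7F/F, against 269220 and 237984 in those of Atg7+/+. Their median ratio was -0.16. On all 4 arrays 3 were lower in Atg7F/F and 0 higher, where 9.95% and 10.6% of all genes were. The replicates of 4 had opposite signs, as for 54.5% of all genes. Of the endothelial markers all 10 passed, with a median ratio of -0.36, and 8 of them were lower in Atg7F/F on all 4 arrays, as were 9.95% of all genes tested. The replicates of the other two had opposite signs, with 0.17 and -1.34 for Emcn and -0.59 and 0.69 for Cldn5 in replicates 1 and 2. Their summed signal was 10290 and 12055 in replicates 1 and 2 of Atg7F/F, against 11638 and 23003 in those of Atg7+/+. Of 8 macrophage and leukocyte markers, Ptprc, Adgre1, Itgam and Cd52 were at background on every array, while Lyz2, Cd14, Cd68 and Csf1r passed the filter. The summed signal of these 4 was 1956 and 4550 in Atg7F/F, against 2576 and 3222 in Atg7+/+ extracts, with Lyz2 the brightest in each extract. Their median ratio was -0.02. Cd68 had a ratio of -0.37 ± 0.09 (limma, adjusted p = 0.9998, unadjusted p = 0.0252) and Cd14 -0.09 ± 0.07. Csf1r had 0.16 ± 0.10, and Lyz2 had -0.50 in replicate 1 and 0.58 in replicate 2. Of 6 skeletal myoblast markers, Myod1, Myf5, Myog and Pax7 were at background on every array, while Chrna1 and Des passed. Their summed signal was 359 and 310.1 in Atg7F/F, against 509.7 and 364 in Atg7+/+ extracts, with Chrna1 the brighter in each extract. Chrna1 had a ratio of -0.54 ± 0.27 (limma, adjusted p = 0.9998, unadjusted p = 0.0272). Des had 0.06 ± 0.21, with 0.21 in replicate 1 and -0.09 in replicate 2. The part of these other cells in the ratios below was not tested, and in such bulk extracts fewer cells of a type and less RNA per cell cannot be told apart.

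No imprinted gene differed between the genotypes past the test. Of the 9 genes, 7 had a probe past the filter, which asks for a signal well above background on all 4 arrays in at least 1 genotype. Limma called 0 of these 7 at an adjusted p below 0.05, as it called 0 of 12367 genes tested (0%). At an unadjusted p below 0.05 it gave 1 of the 7, Plagl1, lower in Atg7F/F, where 1.64% of all genes were lower and 1.34% higher by that rule. By mean ratio the 7 ran from Plagl1 (-0.40) through Ndn (-0.10), Dlk1 (-0.04), Mest (0.05), H19 (0.12) and Sgce (0.18) to Grb10 (0.33). Their median was 0.05, and that of all genes tested was 0.00. None of the 7 had a mean ratio of -0.5 or lower, as 1.06% of all genes did, or of 0.5 or higher, as 1.36% did.

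**Figure D1:**
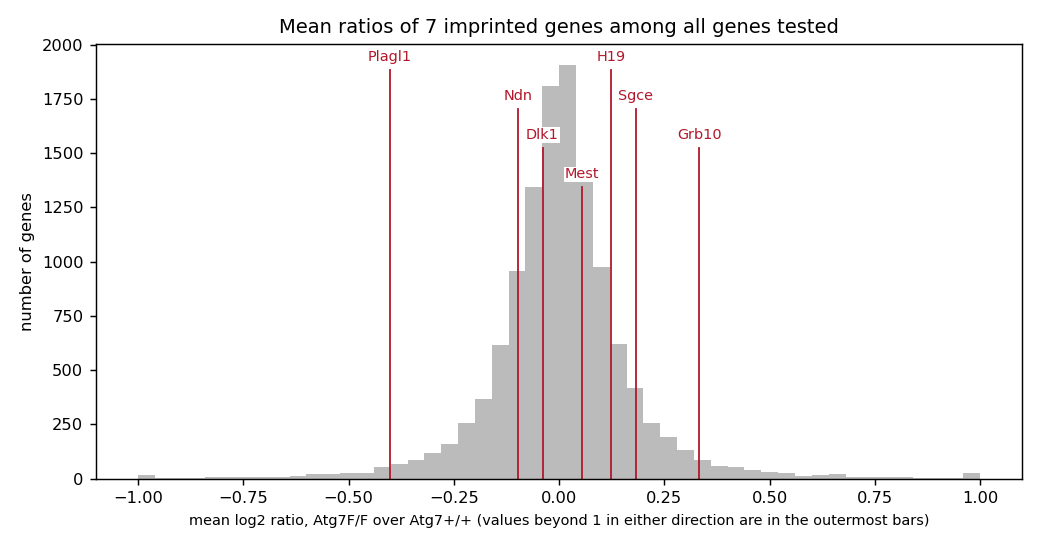
Histogram of the mean log2 ratio, Atg7F/F over Atg7+/+, of the 12367 genes tested (x axis, log2 units; y axis, number of genes), with red lines at the 7 imprinted genes past the filter. Plagl1 at -0.40 and Grb10 at 0.33 lie in the sparse flanks of the distribution, and the other 5 lie between -0.10 and 0.18.

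Plagl1, also known as Zac1, is a zinc finger transcription factor read from the father's copy, and in the mouse it regulates other imprinted genes. Its brighter probe had Cy5 signals of 344 and 167 in replicates 1 and 2 of Atg7F/F, against 423 and 322 in those of Atg7+/+. The Cy3 signals were 214 and 137 in Atg7F/F, against 282 and 229 in Atg7+/+ extracts. Each Atg7F/F extract was thus below the Atg7+/+ extract of its number in both dyes, and in normalized signals both Atg7F/F extracts lay below both Atg7+/+ extracts, as for 10.1% of all genes. The normalized log2 signals were 8.38 and 7.96 in Atg7F/F and 8.69 and 8.45 in Atg7+/+ extracts.

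The mean log2 ratio of Plagl1 was -0.40 ± 0.13, which is 1.32-fold lower, with -0.31 in replicate 1 and -0.49 in replicate 2. The 95% interval from limma was -0.70 to -0.10, with an adjusted p of 0.9998 and an unadjusted p of 0.0234. On single arrays the ratio was -0.12 and -0.51 in replicate 1, and -0.28 and -0.70 in replicate 2, with Atg7F/F in Cy5 and in Cy3. The difference between dye orientations, 0.40, was therefore as large as the mean ratio, where the median absolute difference of all genes was 0.11. The dimmer probe, 1 of 2 for this gene, was also lower on all 4 arrays, as were 9.95% of all genes tested by their brightest probe. It was dim, with Cy5 signals of 29.0 and 16.5 in Atg7F/F, against 41.0 and 30.4 in Atg7+/+ extracts. Its Cy3 signals were 28.8 and 16.4 in Atg7F/F, against 31.4 and 31.9 in Atg7+/+ extracts. Its mean ratio was -0.16 ± 0.05, with -0.12 in replicate 1 and -0.19 in replicate 2. Beside it, the median ratio of the endothelial markers was -0.23 in replicate 1 and -0.51 in replicate 2, and their part in the ratio of Plagl1 was not tested.

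Peg3, another zinc finger gene read from the father's copy, was not measured above background. Its 3 probes gave 24 readings over both channels of the 4 arrays, of which 2 were flagged as well above background, 1 in each genotype and both from the same probe. Signals lay between 0.367 and 18.2, so no fold change is given for it.

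Grb10 encodes an adaptor that binds the insulin and insulin-like growth factor receptors and restrains their signalling, and outside the brain it is read from the mother's copy. Its 3 probes did not behave alike. The brightest probe had Cy5 signals of 13788 and 16160 in Atg7F/F, against 11622 and 11862 in Atg7+/+ extracts. Its Cy3 signals were 9205 and 12236 in Atg7F/F, against 8572 and 8705 in Atg7+/+ extracts. In either dye both Atg7F/F extracts were above both Atg7+/+ extracts, which held in normalized signals for 11.4% of all genes. The Atg7F/F extract of replicate 2 was the highest in both dyes.

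The mean ratio of this Grb10 probe was 0.33 ± 0.25, or 1.26-fold higher, with 0.16 in replicate 1 and 0.51 in replicate 2. It was positive on all 4 arrays, as for 10.6% of all genes. The 95% interval was -0.07 to 0.73, and limma's adjusted p was 0.9998, its unadjusted p 0.0790. The second probe, which reads across a splice junction, had Cy5 signals of 154 and 96.4 in Atg7F/F, against 142 and 129.8 in Atg7+/+ extracts. Its mean ratio was -0.08 ± 0.06, negative on all 4 arrays. The dimmest probe, at the other end of the probed stretch, had a mean of -0.03 ± 0.09 and mixed signs. Its signals were low, from 37.4 to 55.3. The value above 0 thus rests on 1 of 3 probes, and the mean over the 3 probes was 0.08.

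Of 15 genes for insulin-like growth factors, their receptors, binding proteins and adaptors, Grb10 among them, 11 were tested. Limma called 0 of them after adjustment and 0 at an unadjusted p below 0.05. Their median ratio was 0.12, with -0.07 in replicate 1 and 0.46 in replicate 2, where the medians of all genes were 0.00 and 0.01. The ratios of the 2 replicates had opposite signs for 7 of the 11, against 54.5% of all genes. The binding proteins Igfbp4 and Igfbp2 had 0.32 ± 0.22 and -0.24 ± 0.01, and the growth factor Igf1 had -0.23 ± 0.77. The receptor Igf2r, an imprinted gene that clears insulin-like growth factor 2, had 0.03 ± 0.03. Igf2, the gene of that growth factor, was at background on all 4 arrays.

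Sgce encodes epsilon-sarcoglycan, a membrane glycoprotein of the dystrophin-associated complex that smooth muscle contains, and is read from the father's copy. Its brighter probe had Cy5 signals of 6663 and 9194 in Atg7F/F, against 6856 and 7056 in Atg7+/+ extracts. Its Cy3 signals were 3948 and 6863 in Atg7F/F, against 4578 and 4789 in Atg7+/+ extracts. In both dyes the Atg7F/F extracts were at the extremes, replicate 1 lowest and replicate 2 highest, and the Atg7+/+ extracts lay between them. The log2 ratio was -0.14 in replicate 1 and 0.51 in replicate 2, a mean of 0.18 ± 0.46 with a 95% interval of -0.44 to 0.80. Limma's adjusted p was 0.9998, its unadjusted p 0.429.

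The dimmer Sgce probe, which spans an intron, gave 0.00 in replicate 1 and 0.60 in replicate 2, a mean of 0.30 ± 0.43. Both probes therefore placed the Atg7F/F extract of replicate 2 above its Atg7+/+ partner and separated it from replicate 1. Markers of adventitial fibroblasts also differed between the replicates, with a median of -0.28 in replicate 1 and 0.35 in replicate 2, and their part in this ratio was not tested. Of these markers 8 of 10 passed the filter, Dpp4 was at background on every array, and their summed signal was 15426 and 24523 in Atg7F/F, against 17871 and 21726 in Atg7+/+ extracts. The medians do not describe every marker. Among the 8, the replicates had opposite signs for 5, where 54.5% of all genes did. Lower in Atg7F/F on all 4 arrays were 2 of the 8, as were 9.95% of all genes. Peg10, a gene derived from a retrotransposon that the placenta needs, lies next to Sgce in the same imprinted domain. Its single probe was flagged as well above background in 0 of 8 readings, with signals of 0.984 to 9.90.

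Dlk1, also called Pref-1, encodes a transmembrane protein with EGF-like repeats that restrains the differentiation of preadipocytes, and is read from the father's copy. The brighter probe had Cy5 signals of 214 and 84.9 in Atg7F/F, against 163 and 138 in Atg7+/+ extracts. Its Cy3 signals were 153 and 79.1 in Atg7F/F, against 138 and 119 in Atg7+/+ extracts. As for Sgce, the Atg7F/F extracts held both extremes in each dye, but here replicate 1 was highest and replicate 2 lowest. The log2 ratio was 0.19 in replicate 1 and -0.27 in replicate 2, with a mean of -0.04 ± 0.32 and a 95% interval of -0.51 to 0.43. The adjusted p from limma was 0.9998 and the unadjusted p 0.812.

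The dimmer Dlk1 probe gave 0.21 in replicate 1 and -0.33 in replicate 2. Both probes kept these signs in both dye orientations, so the replicates disagreed in direction on all 4 arrays. Meg3, the maternally read non-coding RNA of the same domain, had a ratio of -0.23 ± 0.08 by its brightest probe, negative on all 4 arrays, and -0.01 by its other probe past the filter. Its normalized log2 signals were 7.73 and 8.83 in Atg7F/F and 7.90 and 9.12 in Atg7+/+ extracts, so the replicates stood further apart than the genotypes. Of the preadipocyte and adipocyte markers, 5 of 7 were tested, with a median of 0.02 in replicate 1 and 0.32 in replicate 2. The nuclear receptor Pparg had 0.32 ± 0.00 (limma, adjusted p = 0.9998, unadjusted p = 0.0284) and the lipase Lpl 0.34 ± 0.21. Cebpa had 0.22 ± 0.28, Zfp423 had 0.05 ± 0.08, and the fatty acid binding protein gene Fabp4 had -0.56 in replicate 1 and 0.55 in replicate 2, while Adipoq was at background on every array.

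**Figure D2:**
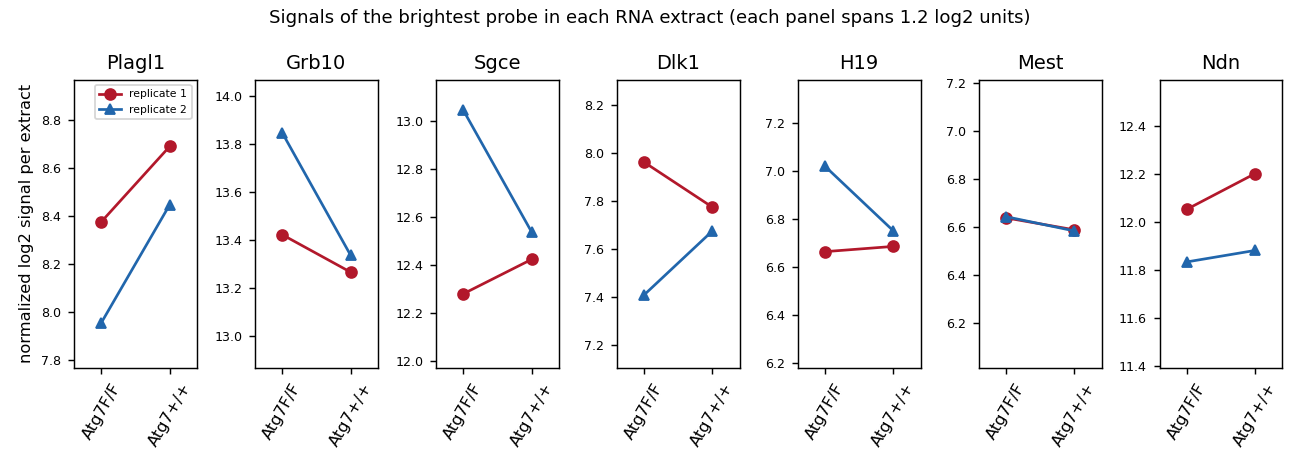
Normalized log2 signal of the brightest probe of 7 genes (y axis, log2 units, each panel spanning 1.2 units) in the Atg7F/F and Atg7+/+ extracts (x axis), with a line joining the extracts of one replicate number. Lines of Sgce and Dlk1 slope in opposite directions in the 2 replicates, those of Plagl1 and Grb10 in the same direction, and those of Mest lie on each other.

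H19 is a non-coding RNA read from the mother's copy that restrains growth, and it shares regulatory elements with the neighbouring Igf2. It was dim here. The brighter probe was well above background in all readings, with Cy5 signals of 25.7 and 51.2 in Atg7F/F, against 25.3 and 28.9 in Atg7+/+ extracts. Its Cy3 signals were 32.1 and 51.3 in Atg7F/F, against 34.0 and 27.3 in Atg7+/+ extracts. The Atg7F/F extract of replicate 2 was the highest in each dye, and the other 3 extracts lay close together.

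The log2 ratio of H19 was -0.02 in replicate 1 and 0.27 in replicate 2, a mean of 0.12 ± 0.21 with a 95% interval of -0.24 to 0.49. In limma the adjusted p was 0.9998 and the unadjusted p 0.366. The dimmer, spliced probe was above background in 6 of 8 readings and did not pass the filter. It gave 0.03 in replicate 1 and 0.11 in replicate 2.

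Mest encodes a protein with an alpha/beta hydrolase fold and marks mesoderm in the embryo, and it is read from the father's copy. Its single probe was dim, with Cy5 signals of 30.2 and 26.7 in Atg7F/F, against 21.7 and 18.96 in Atg7+/+ extracts. Its Cy3 signals were 24.3 and 24.9 in Atg7F/F, against 25.3 and 22.1 in Atg7+/+ extracts, where the groups overlapped. The ratio was 0.05 ± 0.01, with a 95% interval of -0.21 to 0.32 and an adjusted p of 0.9998 from limma. The range over the 4 normalized extracts, 0.06, was the narrowest of the 7 genes, and the offset added to dim spots limits how far such a probe can vary.

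Ndn encodes necdin, a growth suppressor of the MAGE family known best from neurons, and is read from the father's copy. Its probe had Cy5 signals of 4853 and 3594 in Atg7F/F, against 5359 and 3869 in Atg7+/+ extracts. Its Cy3 signals were 3910 and 3081 in Atg7F/F, against 4272 and 3463 in Atg7+/+ extracts. Within each dye the Atg7F/F extract was the lower one of its number, and the extracts of replicate 2 were lower than those of replicate 1 in both genotypes. After normalization the ratio was -0.10 ± 0.07, with an adjusted p of 0.9998 from limma, and 0.347 unadjusted. Its sign followed the dye, with -0.37 and -0.24 when Atg7F/F was in Cy5 and 0.08 and 0.15 when it was in Cy3. The difference between orientations, -0.42, was the largest in size of the 7 genes. The 6 neural and Schwann cell markers that passed the filter had a median ratio of 0.22. Their summed signal was 11127 and 15038 in Atg7F/F, against 11781 and 9213 in Atg7+/+ extracts, and their part in the ratio of Ndn was not tested.

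**Figure D3:**
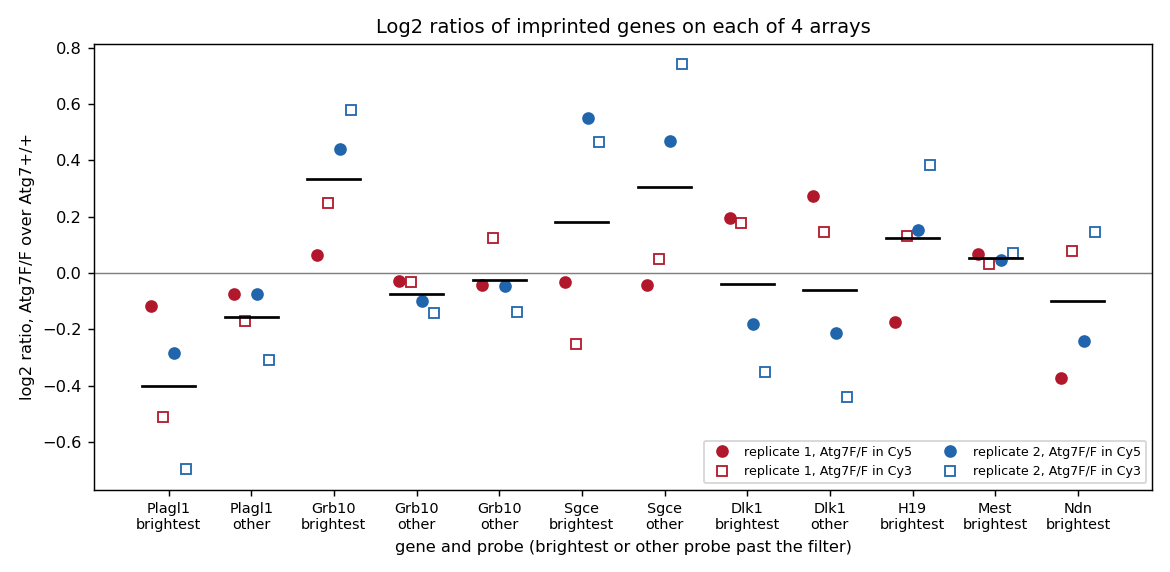
Log2 ratio, Atg7F/F over Atg7+/+ (y axis), of the 12 probes past the filter (x axis) on each of the 4 arrays, with colour for the replicate, filled circles for Atg7F/F in Cy5, open squares for Atg7F/F in Cy3, and a black bar at the mean. Both Plagl1 probes lie below 0 on all arrays, both Dlk1 probes split by replicate, and Ndn splits by dye.

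Across the 7 genes, 2 (Grb10 and Mest) were higher in Atg7F/F on all 4 arrays, as were 10.6% of all genes, and 1 (Plagl1) was lower, as were 9.95%, while 4 had mixed signs. Mest was higher on 3 of the 4 arrays with no background subtraction or with the software's processed signals. The replicates had opposite signs for 3 genes, Sgce, Dlk1 and H19, where 54.5% of all genes did. The normalized signals of the 4 extracts ranged over more than the median of all genes, 0.27 log2 units, for 6 of the 7 genes, the exception being Mest. The widest ranges were 0.77 for Sgce, 0.73 for Plagl1, 0.58 for Grb10 and 0.55 for Dlk1, with the upper quartile of all genes at 0.44.

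For several genes most of that range lay between the Atg7F/F extracts. In log2 units, the Atg7F/F extract of replicate 2 differed from that of replicate 1 by 0.77 for Sgce, -0.55 for Dlk1, 0.42 for Grb10, -0.42 for Plagl1 and 0.36 for H19. In the Atg7+/+ extracts the same differences were 0.11 for Sgce, -0.10 for Dlk1, 0.07 for Grb10, -0.24 for Plagl1 and 0.06 for H19. Ndn went the other way, with -0.22 in Atg7F/F and -0.32 in Atg7+/+ extracts, and Mest had 0.005 and -0.005. Over all genes the median absolute difference was 0.16 in Atg7F/F and 0.13 in Atg7+/+ extracts. Whether the spread differs between genotypes was not tested, since each genotype has 2 extracts.

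Other genes of the mouse imprinted network were read alongside, from a list chosen by function. Of 8 genes 5 were tested, 0 of them past the test or at an unadjusted p below 0.05, with a median ratio of -0.01. Besides Meg3 and Igf2r, the matrix proteoglycan Dcn had 0.11 ± 0.62, with -0.33 in replicate 1 and 0.55 in replicate 2. The G protein subunit gene Gnas had -0.10 ± 0.05, and Cdkn1c, an inhibitor of cell division, had -0.01 ± 0.09. Slc38a4, an amino acid transporter, was above background on 1 array, in Atg7+/+ cells, and Igf2 and Gatm on 0 arrays.

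Of 21 further genes listed as read from the father's copy 10 were tested, and of 22 listed as read from the mother's copy 12. Some of these are imprinted only in certain tissues, and which copy was read in these cells was not measured. Limma called 0 in either list after adjustment. At an unadjusted p below 0.05 it gave 1 gene, Nnat, lower in Atg7F/F, as were 1.64% of all genes by that rule. Nnat, which encodes the membrane protein neuronatin, had -0.46 ± 0.13, with -0.37 in replicate 1 and -0.55 in replicate 2. Its normalized log2 signals were 8.81 and 6.95 in Atg7F/F and 9.18 and 7.50 in Atg7+/+ extracts. The replicates of Nnat thus stood further apart than the genotypes. Dio3, the deiodinase that inactivates thyroid hormone and lies in the domain of Dlk1, had 0.47 ± 0.40. The medians of the lists were 0.00 for the paternal and -0.01 for the maternal genes, at or near the 0.00 of all genes. Snrpn, a splicing factor gene, had -0.19 ± 0.24, and Peg12 0.18 ± 0.06. The replicates had opposite signs for 4 of the 10 paternal and 9 of the 12 maternal genes tested, against 54.5% of all genes. The largest mean ratios among the maternal genes were -0.20 ± 0.19 for the protease inhibitor Tfpi2, 0.18 ± 0.39 for Trappc9, 0.16 ± 0.49 for Asb4 and 0.15 ± 1.04 for the transporter Slc22a18. Of these 4, Tfpi2 was lower on all 4 arrays, and the replicates of the other three had opposite signs. In each of the 2 lists, 7 genes had no reading well above background.

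The size of the ratios of dim probes depended on how background was handled, because an offset of 50 pulls them towards 0. For the brighter Plagl1 probe the mean was -0.47 with no offset, -0.43 with no background subtraction and -0.55 with processed signals of the scanner software. For the dimmer Plagl1 probe the software's signals gave -0.67, and all 4 treatments of the background left both probes negative on all 4 arrays. H19 was 0.48 by the software's signals, with -0.27 in replicate 1 and 1.24 in replicate 2. Dlk1 was 0.25 in replicate 1 and -0.59 in replicate 2 by the same signals. Mest was 0.14 with no offset and 0.31 by the software's signals, with 0.06 in replicate 1 and 0.55 in replicate 2. The brightest probes of Grb10, Sgce and Ndn moved little, to 0.34, 0.18 and -0.10.

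**Figure D4:**
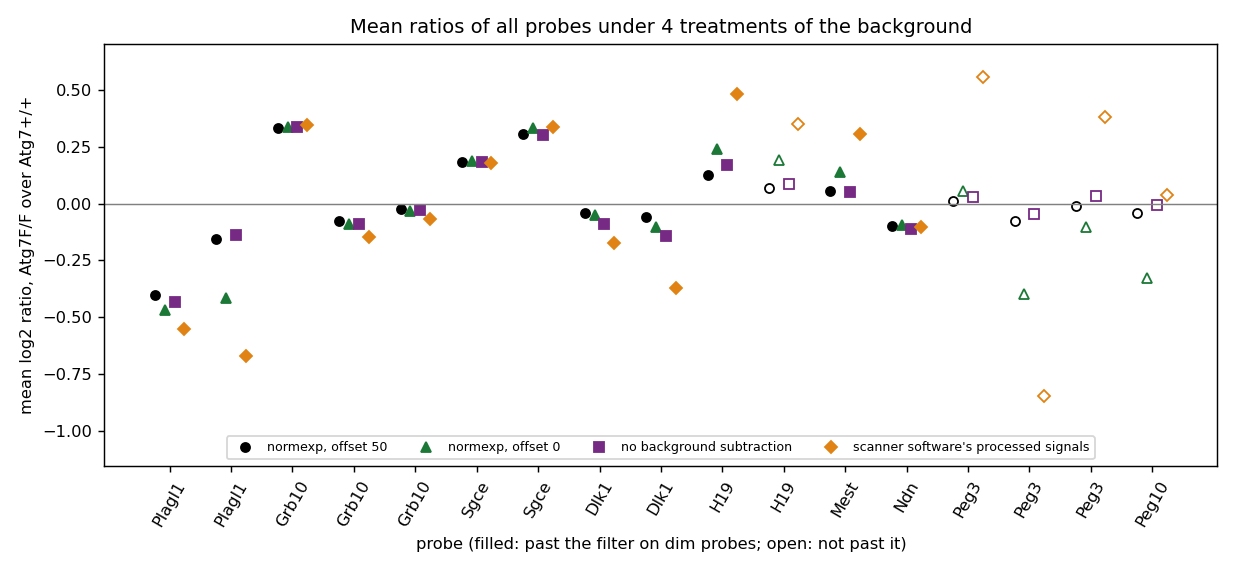
Mean log2 ratio, Atg7F/F over Atg7+/+ (y axis), of all 17 probes (x axis) under 4 treatments of the background, filled where the probe passed the filter and open where it did not. The brightest probes of Grb10, Sgce and Ndn keep their values, the 2 other Grb10 probes reach -0.15 and -0.07 with the software's signals, those of Plagl1, Dlk1, H19 and Mest spread away from 0 with the software's signals, and the probes of Peg3 and Peg10 scatter on both sides of 0.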

How the data were processed

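The deposited scanner files hold mean spot intensity and median local background intensity per channel, not normalized, from version 10.1.1.1 of the authors' Agilent software, Feature Extraction. Its processed signals and their log10 ratio, Cy5 over Cy3, are deposited too. A value table deposited by the authors gives log2 ratios, which equalled those of the processed signals, Atg7F/F over Atg7+/+, within 0.001 for 100% of probes. Its column medians were 0.199, -0.094, 0.081 and -0.037. Dyes and genotypes came from the labels.

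Intensities were corrected with normexp (offset 50) and normalized by loess within arrays in limma 3.58.1 (R 4.3.3). The arrays lay on 1 slide. Probes with a non-uniformity outlier (36) or dim in both genotypes were left out, which kept 17109 probes, and the brightest probe stood for each of 12367 genes. Names came from RefSeq accessions for 25097 probes. Dye swaps were averaged, so n = 2, and ratios were tested against 0 with lmFit and eBayes, two-sided, Benjamini-Hochberg adjusted. Signals per extract were normalized with Aquantile. Pairing is by hybridisation, and deviations of same-numbered extracts correlated at 0.18. The labels do not say that replicates came from separate animals, so p-values measure only the spread between these samples. Members and lists were chosen with earlier results of these data known. Genes were named as members or as the network list. Other lists gave genes from the largest absolute mean ratios (up to 4, or 3 for markers) or at background on every array. Not every such marker is named. Vwf (-0.70) and Mmrn2 (-0.61), with the largest absolute mean ratios of the endothelial markers, are left out. So are the largest of the smooth muscle, adventitial fibroblast and neural markers. Myocd was named because it alone of the smooth muscle markers did not pass the filter. Cldn5, Lyz2, Des, Fabp4 and Zfp423 were chosen after their values were seen. An item of a marker list is not reported here. The code was tested on simulated data.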

Additional observations from a re-analysis of the deposited data

How the results depend on the processing

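Limma called 0 of the 7 imprinted genes under every alternative with a test, with adjusted p-values from 0.686 (Grb10) upward. Over all genes it called 9 with the 4 arrays as a random replicate block (7 higher, 2 lower) and 1, higher, with no replicate block and extracts unpaired, and 0 otherwise. Each of the 7 mean ratios kept its sign under all alternatives of background, normalization and filter, and as the mean over a gene's probes. Taken singly, however, the second and the dimmest Grb10 probe had -0.08 and -0.03. With median centring Ndn was -0.01 and Dlk1 -0.02, and with processed signals Mest was 0.31. Without replicate 2, Sgce was -0.14, Dlk1 0.19 and H19 -0.02, and without replicate 1 they were 0.51, -0.27 and 0.27. Plagl1 ran from -0.55 to -0.28 and Grb10 from 0.08, as the mean of its probes, to 0.45, with median centring, or 0.16 and 0.51 without replicate 2 and without replicate 1. A block for slide could not be fitted, since the arrays share 1 slide. With 2 replicates, the smallest two-sided p of an exact sign-flip test is 0.5. Signal over background limits H19, Mest, Peg3 and Peg10, and also the dimmer Plagl1 and the dimmest Grb10 probe.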

Other observations

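Genes that keep or erase imprints were read as a further list. Of 12 genes 8 were tested, and limma called 0 after adjustment and 0 at an unadjusted p below 0.05, with a median ratio of 0.04. The zinc finger protein Ctcf, which insulates Igf2 from elements shared with H19, had 0.16 ± 0.10, and the DNA demethylase Tet3 0.15 ± 0.10. The methyltransferase Dnmt3a had -0.12 ± 0.12, and Uhrf1, which recruits the maintenance methyltransferase, 0.11 ± 0.06. Dnmt3b, Tet2 and Dppa3 were not above background on any array.

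Plagl1 had the largest absolute mean ratio of the 7 imprinted genes. The genes tested whose ratios on the 4 arrays lay nearest to its own were Nudt6, Lrp2 and Alcam, at Euclidean distances of 0.111, 0.138 and 0.147 log2 units over 4 arrays. Their mean ratios were -0.35, -0.36 and -0.45. The arrays share 4 extracts in 2 pairs, so this likeness is a description.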
